A study of Mus musculus with 6 samples.

Results

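Axon guidance genes encode the secreted and membrane-bound cues that steer growing nerve fibres, and the receptors that read them. They are described here across 6 single-colour arrays of mouse tissue. Members were the platform's gene symbols of the semaphorins, plexins, neuropilins, ephrins, Eph receptors, Slits, Robos, netrins, Dcc and Unc5 receptors, with the probe of highest mean intensity for each gene. They numbered 69 of the 17742 named genes: 20 semaphorins, 11 plexins and neuropilins, 8 ephrins, 14 Eph receptors, 7 Slits and Robos, and 9 netrins with Dcc and the Unc5 receptors. The rule for membership used no measured value.

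Each array was hybridised with amplified, Cy5-labelled RNA of a tissue labelled brain, ovary or uterus. The donors were female BALB/c mice, either untreated (mock) or dosed orally with SHT, the herbal formula Sheng-Hua-Tang, at 200 mg/kg over 7 days. The labels state neither the age of the mice, nor how many were pooled for an array, nor if a mouse gave more than 1 tissue. Each of the 6 groups held 1 array, so differences within a labelled tissue have no replicate check.

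The tissue labels did not match the marker genes on 4 of the 6 arrays. Neuron markers summed to 184395 and 176605 on the arrays labelled SHT ovary and mock brain and to between 1252 and 6074 on the other 4. Theca and luteal markers summed to 94366 and 112177 on the arrays labelled SHT brain and mock uterus, and to at most 894 elsewhere. Keratin and squamous markers summed to 321812 and 464333 on the arrays labelled SHT uterus and mock ovary, where the uterus list scored highest of the 3 tissue lists. That score was low, at 1.14 and 0.49 (median log2 intensity of the list minus the mean of the 6 arrays), and the array labelled SHT brain had 0.73. No array was moved to another group. Below, "brain markers", "ovary markers" and "keratin and uterine markers" name these 3 pairs of arrays by what they carried, and every value remains that of an array with the label just given. Across all probes, which are not independent replicates, the log2 intensities of these pairs correlated at 0.996, 0.981 and 0.972 (Pearson), against 0.813 to 0.931 for the arrays that share a tissue label. In RNA from whole tissue, fewer cells of a type and less RNA per cell cannot be told apart.

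As background, semaphorins mostly act through plexins, with neuropilins as co-receptors for the secreted class 3 members. Ephrins are anchored to the cell surface and signal through Eph receptors on the touching cell, and in the reverse direction too. Slits repel through Robo receptors, while netrins attract through Dcc and repel through the Unc5 receptors. In the adult brain many of these genes remain in use at synapses, and outside it they take part in vessel growth, epithelial boundaries and immune cell traffic.

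Values are linear intensities as deposited, and differ between probes for reasons other than RNA amount, so only arrays are compared, never genes. Olfactory receptors, silent in most tissues, gave the background level: the 95th percentile over 529 of these genes, which lay between 275 and 541 over the arrays. Of the 69 members, 28 were above it on all 6 arrays and 13 on none. A member was counted as brighter with brain markers where the lower of its values on the arrays labelled SHT ovary and mock brain was at least 2-fold above its highest value on the other 4 arrays, and both were above background. It was counted as dimmer where the order was turned and all of the other 4 arrays were above background, a stricter demand than for brighter. A fold is called "at least" where the dimmer side lay under the background level, which then replaced it.

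By this rule 15 of the 69 members (21.7%) were brighter on both arrays with brain markers, where 8.57% of all 17742 genes were. Dimmer were 7 members (10.1%), against 7.58% of all genes. The counts of each family and list below are to be set beside these same shares of all genes. The other 47 met neither condition, of which 34 were above background on at least 1 array. The median over members of the log2 gap (lowest of the 2 minus highest of the 4) was -0.17, and that over all genes -0.52. Ligands and receptors were counted brighter at similar shares, 8 of 35 and 7 of 34, and 5 ligands and 2 receptors were dimmer. These are counts on arrays chosen by their markers, with no test. The arrays with brain markers carried markers of several neural cell types together: 10 of 11 neuron, 4 of 5 astrocyte and 6 of 6 oligodendrocyte markers were brighter there by the same rule. These lists together chose those arrays, so the counts describe the choice and do not support it. Which of these neural cells the members' signal came from was not tested. With no background level required 19 members were brighter, against 11.4% of all genes, and 10 dimmer, against 10.1%. The 4 further brighter members were Dcc, Epha6, Epha10 and Robo3, and the further dimmer ones Epha2, Ntn1 and Sema3g.

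**Figure D1:**
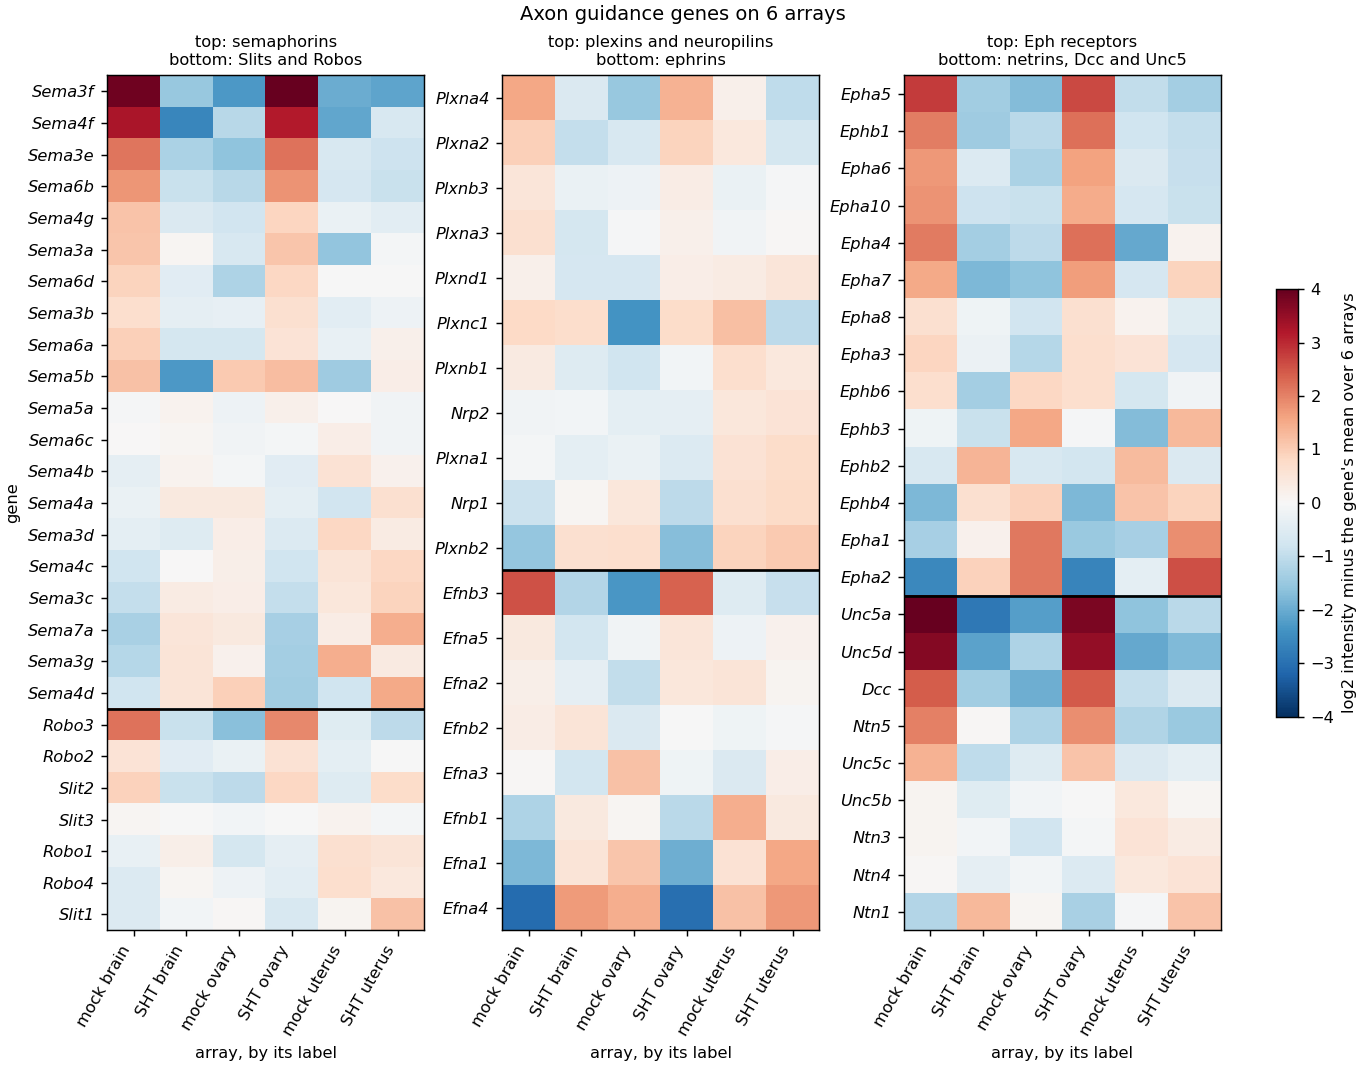
Log2 intensity of each of the 69 members minus its mean over the 6 arrays (colour), by gene (rows, ordered within each family by the gap between the arrays with brain markers and the rest) and by array label (columns). Red cells at the top of the semaphorin, Eph receptor and Unc5 blocks stand in the columns labelled SHT ovary and mock brain, and blue cells at the bottom of the ephrin and Eph receptor blocks stand in the same columns.

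Among the semaphorins, 6 of 20 were brighter and 2 dimmer on the arrays labelled SHT ovary and mock brain. Sema3f, a secreted repellent that binds neuropilin-2, read 3756 and 3504 on the arrays labelled SHT ovary and mock brain, 81.4 and 59.4 on those labelled SHT brain and mock uterus, and 54.0 and 48.0 on those labelled SHT uterus and mock ovary. The groups did not overlap, and the gap was at least 11.0-fold. Sema4f, a membrane-bound semaphorin found at synapses, read 698 and 734 with brain markers, 12.6 and 18.2 with ovary markers, and 49.7 and 35.9 with keratin and uterine markers, a gap of at least 2.19-fold. Sema3e, the ligand of plexin-D1, read 882 and 871 with brain markers, 80.9 and 127 with ovary markers, and 111 and 64.8 with keratin and uterine markers, at least 2.74-fold apart. All 4 dimmer arrays were inside the background for these 3 genes. Sema6b, a transmembrane ligand of class A plexins, read 2366 and 2324 with brain markers, 369.7 and 424 with ovary markers, and 371 and 315 with keratin and uterine markers. Here the other 4 arrays were above background and the gap was 5.48-fold. Sema3a, the repellent that binds neuropilin-1, and Sema4g were the other brighter members. Sema3a read 1058 and 1070.2 with brain markers, 525 and 165 with ovary markers, and 469.9 and 313 with keratin and uterine markers, so its gap of 2.02-fold was close to the threshold. On the array labelled mock uterus it was inside background. Sema4g had a gap of 2.17-fold.

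Sema3c, a secreted semaphorin with roles in heart and vessel development, ran the other way and read 995 and 997 on the arrays labelled SHT ovary and mock brain, 2403 and 2635 on those labelled SHT brain and mock uterus, and 3577 and 2324 on those labelled SHT uterus and mock ovary. Its values with brain markers were 2.33-fold under the lowest of the other 4. Sema7a, a membrane-anchored semaphorin that signals through integrins, read 410.4 and 418 with brain markers, 1456 and 1258 with ovary markers, and 2844 and 1339 with keratin and uterine markers and was at least 2.32-fold dimmer with brain markers. Its second probe was inside the background on all 6 arrays. Sema4c, whose receptor is plexin-B2, read 918 and 905 with brain markers, 1608 and 2274 with ovary markers, and 2804 and 1865 with keratin and uterine markers, lowest on the arrays with brain markers without reaching 2-fold. Sema4b and Sema4a differed less from array to array. Sema4b read 1919 and 2036 with brain markers, 2901 and 3881 with ovary markers, and 2925 and 2454 with keratin and uterine markers. Sema4a, known for its roles in T cells, read 1599.8 and 1719 with brain markers, 2759 and 1226 with ovary markers, and 3273 and 2711 with keratin and uterine markers. Both had their lower values with brain markers, apart from Sema4a on the array labelled mock uterus. Sema5a, which carries thrombospondin repeats, read 1672 and 1431 with brain markers, 1613 and 1488 with ovary markers, and 1339 and 1279 with keratin and uterine markers and spanned a log2 range of 0.39. Of the semaphorins without values here, Sema3b and Sema6d were highest with brain markers at a log2 gap of 0.83 each, and Sema3d, Sema3g and Sema4d were not. The remaining 3, Sema5b, Sema6a and Sema6c, were under the background level on every array.

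The 250 bases before the RefSeq start of a brighter and a dimmer member of each of a pair of families are shown because the members ran opposite ways within a family. They are on build GRCm38.p6, in the direction of the gene. Capitals mark matches on either strand to any of 7 short motifs: the GC box (GGGCGG), the CCAAT box (spelled as its name), the TATA box (TATAAA), the core of the cAMP response element (TGACGT), an E-box form (CAGGTG), and the left part (TTCAGCACC) and the right part (GGACAG) of RE1, the site of the neuronal gene repressor REST. The stretch of Sema3e (brighter) is chr5:14025026-14025275, + strand, that of Sema3c (dimmer) chr5:17574566-17574815, + strand, that of Ephb1 (brighter) chr9:102354694-102354943, - strand and that of Ephb4 (dimmer) chr5:137349859-137350108, + strand.
Sema3e: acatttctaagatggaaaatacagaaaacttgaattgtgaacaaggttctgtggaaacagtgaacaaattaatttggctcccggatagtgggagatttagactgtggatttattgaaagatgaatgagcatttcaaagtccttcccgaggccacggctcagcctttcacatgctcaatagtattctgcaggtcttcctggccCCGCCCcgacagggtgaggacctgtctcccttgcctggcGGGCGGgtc
Sema3c: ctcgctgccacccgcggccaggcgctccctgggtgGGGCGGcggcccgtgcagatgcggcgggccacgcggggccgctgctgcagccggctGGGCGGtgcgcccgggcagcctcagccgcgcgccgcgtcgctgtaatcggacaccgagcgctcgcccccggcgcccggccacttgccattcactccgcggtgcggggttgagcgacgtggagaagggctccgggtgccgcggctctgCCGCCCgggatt
Ephb1: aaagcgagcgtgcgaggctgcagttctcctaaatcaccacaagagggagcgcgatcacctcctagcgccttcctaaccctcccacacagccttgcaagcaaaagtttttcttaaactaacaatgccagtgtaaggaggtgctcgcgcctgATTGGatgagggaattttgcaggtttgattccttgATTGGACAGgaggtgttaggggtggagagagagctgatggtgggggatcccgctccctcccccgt
Ephb4: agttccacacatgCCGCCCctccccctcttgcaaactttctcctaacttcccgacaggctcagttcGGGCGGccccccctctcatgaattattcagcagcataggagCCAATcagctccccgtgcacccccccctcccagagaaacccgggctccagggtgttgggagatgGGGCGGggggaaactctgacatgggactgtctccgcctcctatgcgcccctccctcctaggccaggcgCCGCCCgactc
The Sema3e stretch held 7 CpG dinucleotides and that of Sema3c 39. Those of Ephb1 and Ephb4 held 10 and 12. In Ephb1 a match to CCAAT and the one to GGACAG overlap. The Ephb1 stretch had no GC box and the other 3 had between 2 and 4. Promoters of 59 members were in the RefSeq table, where the first entry of a gene was used. A GC box stood in 72.9% of these 59, in 48.6% of the 13980 promoters of genes on the array, and in 32.9% of the promoters of all 27025 genes in the table. Among the members it was in 6 of 11 brighter, 5 of 7 dimmer and 32 of 41 others. CCAAT was in 15 (25.4%) of the members' promoters, against 35.5% of array genes and 34.5% of all. TATAAA was in 2 (3.39%, against 9.71% and 13.0%), CAGGTG in 8 (13.6%, against 16.7% and 17.1%) and TGACGT in 4 (6.78%, against 8.35% and 6.56%). GGACAG was in 15 (25.4%, against 19.3% and 18.7%) and TTCAGCACC in 0 of 59, against 0.315% and 0.285%. A match or its lack describes these letters in this window and nothing more.

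Plexins and neuropilins are the receptors of the semaphorins, and most of them were measured on every array: 8 of 11 were above background on all 6. Plxna4, the plexin that carries Sema3a signals in sensory and brain neurons, was the 1 brighter member with 2819.8 and 3100.1 on the arrays labelled SHT ovary and mock brain, 723 and 1219 on those labelled SHT brain and mock uterus, and 526 and 370.3 on those labelled SHT uterus and mock ovary, a gap of 2.31-fold. Its second probe stayed between 18.6 and 25.6 on all arrays, inside the background. Plxnb2, a receptor of class 4 semaphorins, was the 1 dimmer member and read 1170.2 and 1317 with brain markers, 5968 and 7148 with ovary markers, and 8029.7 and 6123 with keratin and uterine markers. It was 4.53-fold lower on the arrays labelled SHT ovary and mock brain, with no overlap. Nrp1, a co-receptor of Sema3a that also binds VEGF on vessels, read 959 and 1091 with brain markers, 2109.7 and 3109 with ovary markers, and 3379.9 and 2729 with keratin and uterine markers and was lower with brain markers at a gap just under 2-fold. Both Nrp1 probes gave this order, with a correlation of 0.979 over the arrays. Nrp2, the co-receptor of Sema3f, read 1919 and 2222 with brain markers, 2253 and 3365 with ovary markers, and 3585 and 1858 with keratin and uterine markers. Its values with brain markers overlapped the others. On the 4 arrays where Sema3f was at background, the Nrp2 probe used here was above it. A second Nrp2 probe read between 11.3 and 33.3, inside background on all arrays. Plxna2, a receptor of class 6 semaphorins, read 1515 and 1563 with brain markers, 424 and 1078 with ovary markers, and 503 and 526 with keratin and uterine markers, with its highest values on the arrays with brain markers but a gap under 2-fold. Plxnc1, the receptor of Sema7a, was set apart on other arrays. It read 2649 and 2795 with brain markers, 2590.4 and 3722 with ovary markers, and 782 and 304 with keratin and uterine markers, lowest on the arrays with keratin and uterine markers. The other 5 plexins, Plxna1, Plxna3, Plxnb1, Plxnb3 and Plxnd1, had log2 ranges between 0.74 and 1.48, and Plxna3 was under background on every array.

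Of the 8 ephrins, 3 were dimmer and 1 brighter with brain markers. Efnb3, a transmembrane ephrin of the midline and of synapses, read 1387 and 1595 on the arrays labelled SHT ovary and mock brain, 121 and 192 on those labelled SHT brain and mock uterus, and 145 and 54.7 on those labelled SHT uterus and mock ovary. It was at least 4.36-fold brighter on the arrays labelled SHT ovary and mock brain. Efnb1, a transmembrane ephrin of tissue boundaries, read 608 and 552 with brain markers, 1689.7 and 3549 with ovary markers, and 1673 and 1360.4 with keratin and uterine markers and was 2.24-fold dimmer there. Efna1, a membrane-anchored ephrin of epithelium and vessels, read 461 and 511 with brain markers, 2574 and 2670.0 with ovary markers, and 5281 and 3866 with keratin and uterine markers, at least 4.76-fold dimmer. Efna4 read 35.8 and 33.9 with brain markers, 934 and 656 with ovary markers, and 966 and 793 with keratin and uterine markers. Its 2 values with brain markers were far inside the background, so the ratio to the background level was only 1.21 and no size can be given for the difference. Efnb2, the arterial ephrin, read 2236 and 2748 with brain markers, 3215 and 2002 with ovary markers, and 2201 and 1518 with keratin and uterine markers, and its values with brain markers lay among the others. Efna2 read 924 and 796 with brain markers, 525 and 949.8 with ovary markers, and 728 and 339 with keratin and uterine markers and overlapped likewise. Efna5, a repellent in topographic maps, read 967 and 898 with brain markers, 417 and 602 with ovary markers, and 782 and 623 with keratin and uterine markers, with its highest values with brain markers by less than 2-fold. Efna3 was under background on all 6 arrays.

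**Figure D2:**
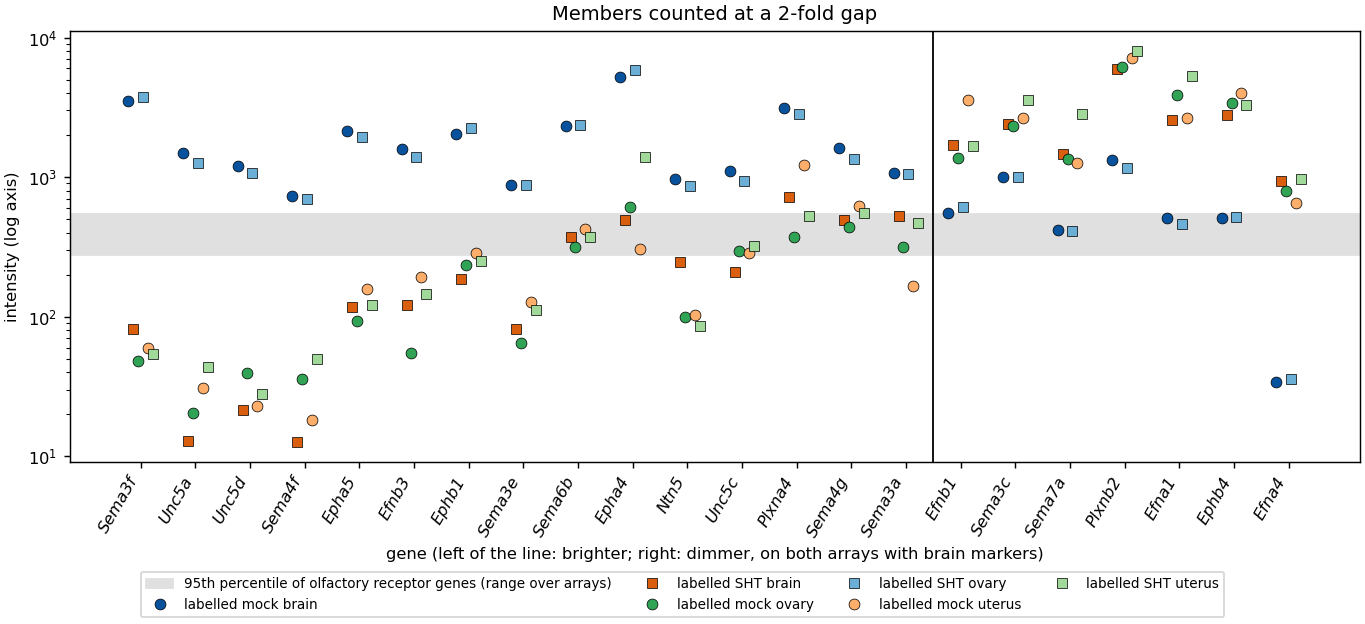
Intensity (log axis) of the 15 members brighter and the 7 dimmer on both arrays with brain markers (genes on the horizontal axis, colours and shapes for arrays by label, grey band for the range over arrays of the olfactory receptor 95th percentile). The blue symbols, labelled SHT ovary and mock brain, lie next to each other for every gene, and most of the dim values of the brighter members lie in or under the band.

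Among the Eph receptors 3 of 14 were brighter and 1 dimmer. Epha5, a receptor of forebrain neurons, read 1926 and 2151 on the arrays labelled SHT ovary and mock brain, 117 and 157 on those labelled SHT brain and mock uterus, and 121 and 93.6 on those labelled SHT uterus and mock ovary, at least 6.05-fold apart. Ephb1, a receptor in guidance of retinal axons, read 2257 and 2044 with brain markers, 184 and 284 with ovary markers, and 251 and 233 with keratin and uterine markers, at least 6.42-fold apart. Epha4, a receptor for both ephrin classes on neurons and astrocytes, read 5811 and 5231 with brain markers, 489 and 303 with ovary markers, and 1389.8 and 609 with keratin and uterine markers, a gap of 3.76-fold above the array labelled SHT uterus. On that array it was above background, as it was on the other 5. Ephb4, the venous receptor of ephrin-B2, read 521 and 512 with brain markers, 2803 and 4000.0 with ovary markers, and 3303 and 3399 with keratin and uterine markers and was at least 5.18-fold dimmer on the arrays labelled SHT ovary and mock brain. The promoter stretches of Ephb1 and Ephb4 are those printed above.

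Ephb3, Epha2 and Epha1 were highest on the arrays with keratin and uterine markers. Ephb3, a receptor of epithelial compartments, read 1429 and 1321 on the arrays labelled SHT ovary and mock brain, 791 and 439 on those labelled SHT brain and mock uterus, and 3650.0 and 4301 on those labelled SHT uterus and mock ovary. Its lowest values were those with ovary markers. Epha2, an epithelial receptor of ephrin-A1, read 31.6 and 32.7 with brain markers, 371 and 150.3 with ovary markers, and 1165 and 847 with keratin and uterine markers, with its 2 highest values on the same arrays and both values with brain markers well inside background. Ephb6, a receptor without kinase activity, read 1928 and 1929 with brain markers, 465 and 739.8 with ovary markers, and 1078 and 2150.5 with keratin and uterine markers with its highest value on the array labelled mock ovary and the next ones with brain markers. Ephb2, Epha6 and Epha10 were under background on every array, and Epha1, Epha3, Epha7 and Epha8 were above it on 1 to 4 arrays. Epha1 was above it only on the arrays labelled SHT uterus and mock ovary, at 762 and 892.

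No member of the Slit and Robo family (0 of 7) met the 2-fold rule in either direction. Of all genes 8.57% were brighter and 7.58% dimmer, so a count of 0 among 7 genes is near these shares. Slit2, a secreted repellent, read 1227 and 1292 on the arrays labelled SHT ovary and mock brain, 373 and 479.5 on those labelled SHT brain and mock uterus, and 1136 and 334 on those labelled SHT uterus and mock ovary. The array labelled SHT uterus came close to the arrays with brain markers and the other 3 were lower. Slit1, known mainly as a neural Slit, read 330.1 and 351 with brain markers, 472 and 551 with ovary markers, and 1152 and 533 with keratin and uterine markers, lowest with brain markers, where both values were inside background. Robo1 read 859 and 909.6 with brain markers, 1295 and 1728 with ovary markers, and 1585 and 679 with keratin and uterine markers, and the arrays with brain markers lay between the other values. Robo4, the Robo of vessel walls, read 853 and 783 with brain markers, 1187 and 1805 with ovary markers, and 1509 and 978 with keratin and uterine markers, lowest with brain markers by less than 2-fold. Robo2 read 277 and 270.4 with brain markers, 137 and 141 with ovary markers, and 182 and 155 with keratin and uterine markers, under the background level throughout, as were Robo3 and Slit3.

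In the netrin group 4 of 9 members were brighter and 0 dimmer with brain markers. Unc5a, a repulsive netrin receptor of neurons, read 1259 and 1482 on the arrays labelled SHT ovary and mock brain, 12.8 and 30.8 on those labelled SHT brain and mock uterus, and 43.7 and 20.4 on those labelled SHT uterus and mock ovary, at least 3.95-fold apart. Unc5d, which also binds the adhesion protein FLRT2, read 1067 and 1196 with brain markers, 21.4 and 22.7 with ovary markers, and 27.6 and 39.7 with keratin and uterine markers, at least 3.35-fold apart. Its second probe stayed at 4.36 or less, inside the background. Unc5c read 931 and 1111 with brain markers, 209 and 287 with ovary markers, and 321 and 294 with keratin and uterine markers, a gap of 2.90-fold. Of these dimmer arrays only that labelled SHT uterus was above background, and barely, at 321 against a level of 318. The remaining receptor of the class, Unc5b, which is known from vessels, read 542 and 587 with brain markers, 396 and 743 with ovary markers, and 581 and 507 with keratin and uterine markers and overlapped between the pairs. So 3 of the 4 Unc5 receptors were counted. Ntn5, a short netrin-like protein, read 861 and 964 with brain markers, 246 and 103 with ovary markers, and 84.9 and 100 with keratin and uterine markers, at least 2.71-fold apart. Ntn1, the founding netrin, read 60.3 and 65.7 with brain markers, 360.2 and 144 with ovary markers, and 326 and 156 with keratin and uterine markers. It was above background only on the arrays labelled SHT brain and SHT uterus, so it could not be counted as dimmer. Ntn3 read 302 and 348 with brain markers, 295 and 470.0 with ovary markers, and 401 and 188 with keratin and uterine markers and overlapped. Dcc, the attractive netrin receptor, read 382 and 374 with brain markers, 26.9 and 35.9 with ovary markers, and 47.0 and 18.0 with keratin and uterine markers. It was highest on the arrays with brain markers but under the background level there, so it was not counted. Its second probe was inside background too. Ntn4 was under background on every array.

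Markers of other cell types also differed between the arrays. The 6 endothelial markers summed to 3152 and 3028 on the arrays labelled SHT ovary and mock brain, and to between 7524 and 12448 on the other 4, and 3 of the 6 (Cdh5, Kdr and Emcn) were dimmer by the 2-fold rule. On the array labelled mock brain 1 of the 6 was above background, on that labelled SHT ovary 5, and on each of the other 4 arrays all 6. In the fibroblast list 4 of 6 were dimmer and 1, Col1a1, was brighter, and in the smooth muscle list 4 of 5 were dimmer. Their part in the members' values was not tested.

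The pathway's other genes were taken from 6 lists of 91 genes, of which 80 were measured and none is a member. Brighter with brain markers were 20 of the 80 (25.0%, against 8.57% of all genes), and 2 were dimmer (2.5%, against 7.58%). Among the 20 is Gap43, which is on the neuron list that helped choose the arrays. The list of adhesion partners and myelin inhibitors had 8 of 17 brighter and 0 dimmer. Lingo1, a co-receptor of myelin inhibitors, read 6169 and 5721 on the arrays labelled SHT ovary and mock brain, 50.7 and 63.6 on those labelled SHT brain and mock uterus, and 73.9 and 74.0 on those labelled SHT uterus and mock ovary. Nfasc, an adhesion molecule of axons, read 2314 and 2240.2 with brain markers, 21.9 and 25.0 with ovary markers, and 111 and 72.3 with keratin and uterine markers. The Nogo receptor Rtn4r read 2861 and 2842 with brain markers, 38.8 and 78.4 with ovary markers, and 111 and 398 with keratin and uterine markers. In ephrin signalling 4 of 14 were brighter: Ngef (ephexin, a partner of EphA receptors), Chn1, Chn2 and Kalrn, and 0 were dimmer. Ngef read 19583 and 17425 with brain markers, 1811 and 769.8 with ovary markers, and 734 and 1907 with keratin and uterine markers. Chn1, the Rac-inactivating chimaerin downstream of EphA4, read 1949.6 and 1508 with brain markers, 39.9 and 50.4 with ovary markers, and 43.0 and 36.5 with keratin and uterine markers, and Kalrn, a Rac activator of dendritic spines, read 9310.0 and 9127 with brain markers, 16.5 and 117 with ovary markers, and 15.3 and 21.6 with keratin and uterine markers. In netrin signalling 3 of 16 were brighter (Dscam, Dscaml1 and Mapk8ip3), in the cytoskeletal list 2 of 9 (Limk1 and Gap43, which is also on the neuron list), and in both 0 were dimmer.

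Semaphorin signalling had 2 of 12 brighter (Crmp1 and Rnd1) and 1 dimmer. Crmp1, a collapsin response mediator, read 2413 and 2936 on the arrays labelled SHT ovary and mock brain, 34.4 and 20.3 on those labelled SHT brain and mock uterus, and 135 and 31.4 on those labelled SHT uterus and mock ovary. Mst1r, a receptor tyrosine kinase of epithelium, read 191 and 193 with brain markers, 886 and 628 with ovary markers, and 1903 and 1854 with keratin and uterine markers and was the dimmer gene. Slit signalling had 1 of 12 brighter (8.33%) and 1 dimmer, near the shares of all genes (8.57% and 7.58%). Srgap3, the GTPase activator that binds Robo, read 17439.5 and 16970.0 with brain markers, 1806 and 1984 with ovary markers, and 2058 and 1134 with keratin and uterine markers, while Vasp, an actin regulator abundant in platelets, read 2190.2 and 2027 with brain markers, 15934 and 11629 with ovary markers, and 20656 and 14496 with keratin and uterine markers. The lists' median log2 gaps ran from -0.94 for semaphorin signalling to 0.93 for the adhesion list, against -0.52 over all genes.

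**Figure D3:**
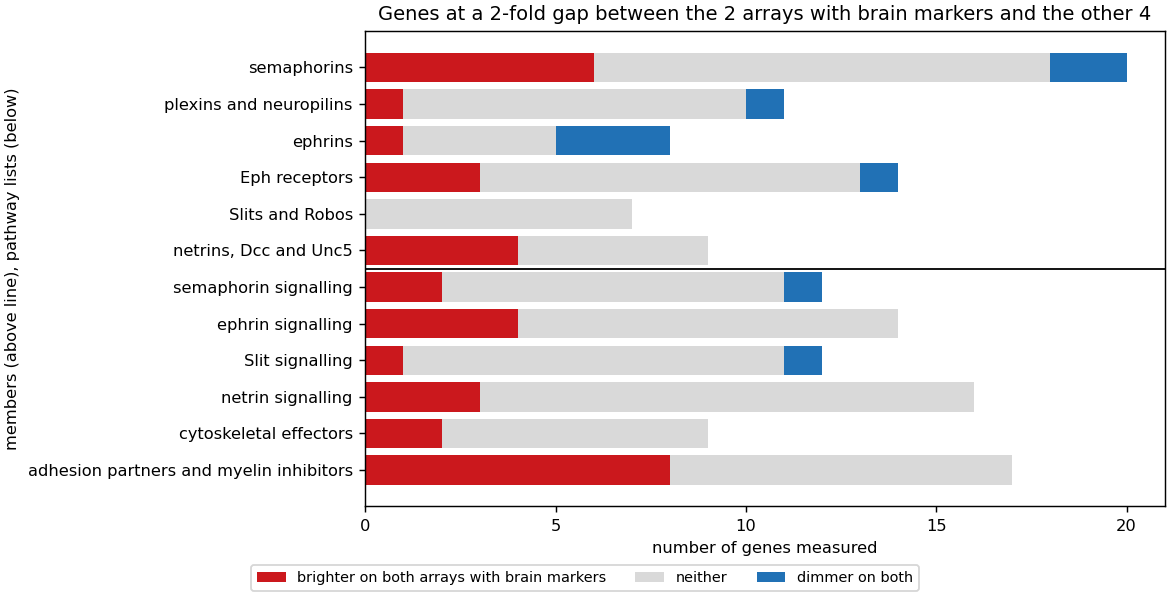
Number of measured genes (horizontal axis) that were brighter (red), dimmer (blue) or neither (grey) by the 2-fold rule, for the 6 member families (above the line) and the 6 pathway lists (below). The netrin group (4 of 9) and the adhesion list (8 of 17) have the largest red shares above and below the line, the ephrins (3 of 8) have the largest blue share, and the Slit and Robo bar is wholly grey. Of all genes 8.57% were brighter and 7.58% dimmer, and most bars hold few genes.

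The arrays that share markers give the size of differences from array to array where the tissue profile is alike. Between the arrays labelled SHT ovary and mock brain, 0 of the 55 members above the level floor (pair mean above the median of pair means over all probes) were 2-fold apart, against 0.151% of the 10577 genes. The median size of the members' log2 differences was 0.13 and the largest 0.42. Between the arrays labelled SHT brain and mock uterus, 7 of 45 members were 2-fold apart (15.6%, against 6.49% of genes), with a median size of 0.38. Sema3a, Sema4a, Ntn1, Epha2 and Ephb3 were lower and Plxna2 and Sema3d higher on the array labelled mock uterus. Sema3a, Ntn1 and Epha2 were inside background on that array, so their differences have no measured size. Between the arrays labelled SHT uterus and mock ovary, 2 of 47 members were 2-fold apart (4.26%, against 10.6% of genes), Slit2 higher and Ephb6 lower on the array labelled SHT uterus. The median gene differed by 0.45 in this last pair and 0.29 in the one before, and differences are relative to it. Without that centring, 12 members were 2-fold apart between the arrays labelled SHT uterus and mock ovary. The share of all genes without centring is not given here, so this count cannot be set beside it. These pairs are not replicates by the labels, and within each, mock and SHT labels differ, so the treatment and the array cannot be told apart.

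**Figure D4:**
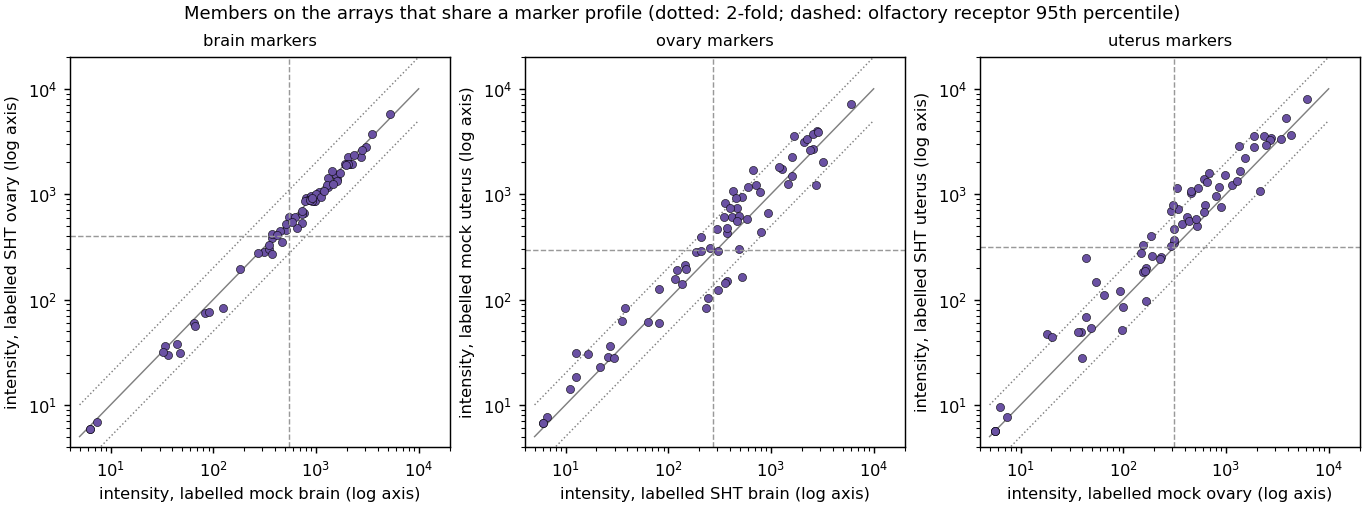
Intensity of the 69 members (points, log axes) on the 2 arrays that share brain, ovary, or keratin and uterine (titled uterus) markers; the dotted lines mark 2-fold and the dashed lines the background level of each array. In the first panel all points above background lie close to the diagonal, while in the other panels they spread more widely.

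The study's own comparison set SHT against mock within each labelled tissue. In each of the 3 pairs the arrays carried different markers, so SHT and the marker profile cannot be told apart. The pairs labelled brain and ovary each join an array with brain markers to one without, and the pair labelled uterus joins ovary markers (mock) to keratin and uterine markers (SHT). In the pair labelled brain, 48 members were above the level floor. Lower on the SHT array were 20 (41.7%, against 23.3% of genes) and higher 6 (12.5%, against 22.8%). In the pair labelled ovary, 21 of 51 were higher (41.2%, against 23.0% of genes) and 10 lower (19.6%, against 23.6%). In the pair labelled uterus, whose arrays both lack brain markers, 10 of 48 were higher (20.8%, against 12.6%) and 6 lower (12.5%, against 9.04%). The members' median log2 difference was -0.74 in the pair labelled brain, 0.54 in that labelled ovary and 0.11 in that labelled uterus, relative to the median gene. The 22 members called in both the brain and the ovary pair had opposite directions, as had 98.2% of the 3559 genes called in both. The array with brain markers is the mock array of the first pair and the SHT array of the second. With 1 array on each side there was no test.

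**Figure D5:**
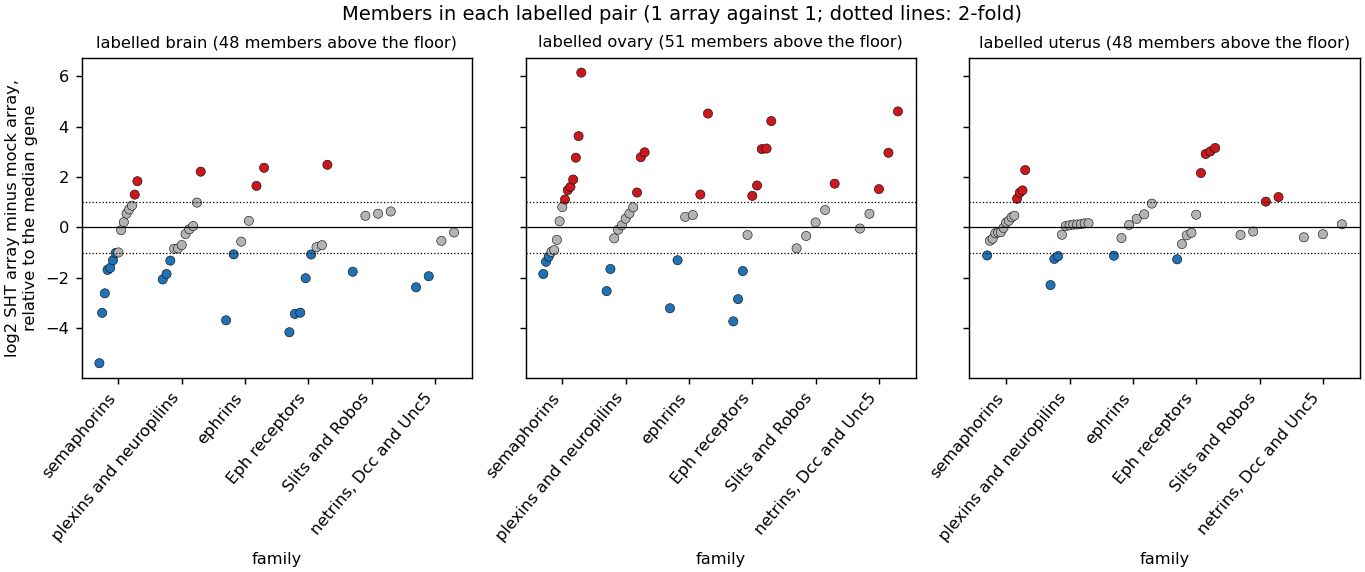
Log2 difference of the SHT array minus the mock array, relative to the median gene, for each member above the level floor (points) by family and labelled tissue; red points are at least 2-fold higher, blue at least 2-fold lower. Values inside background are plotted as they are. Sema3f is the lowest point in the panel labelled brain (-5.39) and the highest in the panel labelled ovary (6.15), with its dimmer array inside background in both.

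Sizes can be ordered only where a member was above background on both arrays of a pair. In the pair labelled brain this held for 11 of the 20 lower and 3 of the 6 higher members. Epha4 was 10.4-fold lower on the SHT array, Sema6b 6.13-fold and Plxna4 4.18-fold. Plxnb2 was 4.65-fold higher, Efnb1 3.14-fold and Sema3c 2.47-fold. Where the dimmer array was inside background, only a bound can be given. Sema3f was at least 12.4-fold lower, Epha5 at least 7.63-fold and Efnb3 at least 5.66-fold, while Ephb4 was at least 5.31-fold and Efna1 at least 4.88-fold higher. Plxna3 and Sema6a, counted lower, were inside background on both arrays, so they have no bound. Members under the level floor, such as Unc5a and Sema4f, were not called in this pair.

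The pair labelled ovary had 9 of 21 higher and 9 of 10 lower members above background on both arrays. Of these Epha4 was 8.66-fold higher on the SHT array, Plxna4 6.92-fold and Sema6b 6.83-fold. Efna1 was 9.24-fold lower, Ephb4 7.19-fold and Plxnb2 5.76-fold. As bounds, Sema3f was at least 10.9-fold, Efnb3 at least 4.04-fold and Unc5d at least 3.10-fold higher, and Epha1 at least 2.44-fold lower. Sema6a, counted higher, was inside background on both arrays, so it has no bound.

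In the pair labelled uterus 6 of 10 higher and 4 of 6 lower members were above background on both arrays. Ephb3 was 8.12-fold higher on the SHT array, Epha4 4.48-fold and Sema4a 2.60-fold. Epha2 was at least 3.85-fold and Epha1 at least 2.52-fold higher. Plxnc1 was 4.88-fold lower, Plxna4 2.38-fold and Plxna2 2.20-fold, and Epha3 at least 1.96-fold. Keratin and squamous markers summed to 4384 on the mock and 321812 on the SHT array of this pair. Theca and luteal markers summed to 112177 and 490.2, and granulosa and oocyte markers to 77735 and 5282. The part of these cells in the members' differences was not tested.

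Over the 3 labelled tissues as blocks, limma called 0 of the 49 members tested for an average SHT effect at an adjusted p of 0.05 (Benjamini-Hochberg, two-sided), and 0% of all 10754 genes. At an unadjusted p under 0.05 it gave 0 members and 4 genes (0.0372%), fewer than this threshold gives where no gene differs. The lowest member p in limma was that of Sema3d, with a log2 difference of -0.49 (SE 0.47, adjusted p = 0.99996), and it was lower on the SHT array in 3 of 3 labelled pairs. By the tissue labels as given, labelled brain against labelled ovary and uterus with treatment as a block, limma also called 0 of 49 members and 0% of genes, with 0 members and 4 genes at an unadjusted p under 0.05. Efnb2 had the lowest member p in that limma fit, with a log2 difference of 0.60 (SE 0.42, adjusted p = 0.9999), from 2 arrays labelled brain against 4. Each fit had 2 residual degrees of freedom and measures the spread between labelled arrays, on which the marker genes go against 4 labels, and not between mice. Tissue differences within a label enter that spread, so 0 calls cannot show that an SHT or brain difference is absent.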

How the data were processed

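RNA of 6 labelled mouse tissues was hybridised to 1 single-colour array each, per the labels' protocols. The deposited table gives linear intensity for 26423 probes; no source used here gives how the authors scaled it or corrected its background, and limma is named in the submitters' processing notes with no role or version. Values of 0 or less (20 to 30 probes an array) and others below the 5th percentile of the positive values were set to that percentile. Log2 values were then taken and arrays were not rescaled. Platform symbols (20377 probes with 1 symbol, 0 with several, 6046 with none) were updated through a RefSeq table of GRCm38.p6, where 18213 matched a symbol, 2126 a synonym and 38 were kept. For each of 17742 genes the probe with the highest mean intensity was used; 11 of the 69 members had several probes. Promoter sequences are RefSeq's on GRCm38.p6.

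An array's markers are the list, of 3 tissue lists, with the highest median log2 intensity relative to the mean of the 6 arrays. Labelled pairs were called at 2-fold relative to the median gene, above a level floor. Average effects were tested on genes whose mean was above the median over all probes, by limma (version 3.58.1, under R 4.3.3) with a trended eBayes. Both this test and the order rule were run on simulated data to check the code. Those data held no tissue differences beyond the changes put in, so they cannot show how either performs here. Members with values for each array were, in each family, the 5 with the highest mean and the 4 with the largest range among those above background; values of other members, such as Sema3a, Sema4g, Sema7a, Dcc and Epha1, were added after their values were seen, as counted or borderline cases. In each labelled pair the 3 largest log2 differences each way are named, with the 3 largest among members above background on both arrays added after values were seen, and up to 3 genes of each pathway list. Members, lists and tests were chosen with earlier results of these data known. The arrays' number limits the precision of every value.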

Additional observations from a re-analysis of the deposited data

Results flagged for a closer look

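Of the members with the largest differences in the pairs labelled brain or ovary, 6 were at least 2-fold apart in both and in opposite directions. Opposite directions were also found for 98.2% of the 3559 genes called in both pairs. The difference between the labelled pairs was not tested, since each pair holds 1 array a side. It was taken as the log2 SHT minus mock difference in the pair labelled brain minus that in the pair labelled ovary. The value was -11.54 for Sema3f, -8.38 for Epha5 and -8.21 for Efnb3. These members were lower on the SHT array of the pair labelled brain and higher on that of the pair labelled ovary. It was 5.58 for Efna1, 5.34 for Ephb4 and 4.74 for Plxnb2, which ran the other way. For Sema3f, Epha5 and Efnb3 in both pairs, and for Efna1 and Ephb4 in the brain pair, the dimmer array was inside background, so these log2 values have no measured size and no order among them. On the marker genes, the mock array of the first pair and the SHT array of the second carry brain markers.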

How the results depend on the processing

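Most counts of members held within 1.5 times of their values under the scaling, probe and threshold alternatives (60 of 71 comparisons). The tests of the average SHT effect and of labelled brain also called 0 members under their alternatives, with each labelled tissue or each array left out (0 to 0), which says nothing about stability. The exceptions follow. With no level floor, 14 members were higher in the pair labelled brain and 16 lower in the pair labelled ovary. With a floor at the olfactory receptor level, 10 were higher in the pair labelled brain. At a 3-fold threshold the pair labelled uterus had 5 higher and 1 lower. The pair with ovary markers then had 3 apart and that with keratin and uterine markers 0. The last pair had 12 apart without centring on the median gene. Shares of all genes under these floors, thresholds and centring are not given here, so these counts have no background to be set beside. With no gap required 12 of the 69 members were dimmer with brain markers, against 19.3% of all genes. At a gap of 4-fold 9 were brighter, against 5.17% of all genes, and 4 dimmer, against 3.15%. Averaging all probes of a gene turned the log2 gap of Sema7a below the other arrays to -0.71 and brought that of Plxna4 above them to 0.58, under 2-fold; the second probe of each was inside background on every array. Of the 15 brighter members, 14 remained after quantile normalization. With 1 array a group there are no replicate numbers to pair; the labelled tissue was the block in the test of the average SHT effect. The added alternatives (values raised to background, no centring) were chosen after seeing the data. Signal over background limits the dim side of most gaps.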
